A study of Homo sapiens with 4 samples.

Results

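Most of the genes described here encode glycosyltransferases of the Golgi that build mucin-type O-glycans, the outer parts of N-glycans and the related chains of glycolipids. All were taken by gene symbol and not by substrate, as the members of the GALNT, B3GNT, B3GALT, B4GALT, ST3GAL, ST6GAL, ST6GALNAC, FUT, MGAT and GCNT families together with C1GALT1. The rule found 79 genes among the 20322 genes of the deposited count table, which uses symbols alone. RNA was sequenced from HT-29, a human colorectal adenocarcinoma line whose cells, per the labels, came from a liver metastasis in a mouse and were kept under puromycin. In all 4 samples IMP1 (gene symbol IGF2BP1), an RNA-binding protein of fetal tissues and tumours, had been targeted with CRISPR/Cas9. The 2 null libraries came from cells carrying an empty PiggyBac vector (PB*-empty), and the 2 IMP1-OE libraries from cells carrying the vector PB*-FLAG-IMP1-short UTR, which returns a tagged IMP1 to that background. No label names the vector's promoter or says whether a line was 1 clone. Per genotype the submitters mention 2 lines, without their derivation, so each p-value rests on the spread between 2 libraries, and that spread may be technical.

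In the Golgi, a mucin-type O-glycan starts when a GALNT enzyme attaches N-acetylgalactosamine to a serine or threonine. C1GALT1 then adds galactose to make core 1, and a GCNT enzyme can add a branch to make core 2. On N-glycans the MGAT enzymes set the number of antennae. Both kinds of chain are lengthened by B4GALT and B3GNT enzymes, which alternate galactose and N-acetylglucosamine, and are capped with sialic acid by ST3GAL, ST6GAL and ST6GALNAC enzymes or with fucose by FUT enzymes. Colon epithelium is known for its heavily O-glycosylated mucins, and colorectal tumours for shortened, sialylated and fucosylated chains.

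Libraries held 9343429 to 10594813 counts. Counts of IGF2BP1 were 37, 16, 71 and 112 in null replicates 1 and 2 and IMP1-OE replicates 1 and 2, which is the order of all runs of 4 values here, and thus followed the labels (edgeR log2 fold change 1.69, SE 0.56, unadjusted p = 0.0235, adjusted p = 0.453). Null replicate 2 stood apart from the other libraries: the summed level of 18 interferon-stimulated genes was 8343 CPM there and 943 to 1211 CPM elsewhere (CPM, counts scaled to TMM library size). Of 10 colorectal epithelial markers, 8 passed the low-count filter, with a summed level of 21036 CPM in null replicate 2 and 26552 to 28739 CPM elsewhere, while CDX1 had counts of 9, 0, 0 and 0 and CDX2 of 47, 2, 0 and 3. Markers of other cells of a metastasis were near the floor in most cases, with ALB, APOA1, CD3E and KDR listed at 0 in every library. Exceptions were the leukocyte marker LYZ, at 12591 to 28605 counts with overlap between the groups, and the hepatocyte marker SERPINA1. SERPINA1 was at 436 and 225 CPM in null and 685 and 725 CPM in IMP1-OE (log2 fold change 1.09, edgeR adjusted p = 0.446, DESeq2 adjusted p = 0.0491), and it made up nearly all of the summed level of 5 hepatocyte markers (438, 225, 686 and 725 CPM). Its part in the glycosyltransferase values was not tested.

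Of the 79 glycosyltransferase genes, 52 passed the low-count filter and were tested, and 27 did not. MGAT4A and ST6GALNAC6 passed it through 1 group only, so their presence among the tested genes already required a difference. GALNT9, MGAT4C and MGAT4D were listed at 0 in every library, which allows up to 3 counts per library (0.285 to 0.328 CPM, counting error only). The highest count of an untested gene was 18, for FUT6 in IMP1-OE replicate 2. In bulk RNA a smaller share of cells that express a gene and less RNA per cell cannot be told apart.

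Compared per kilobase of target, GCNT3 was by far the most abundant of these mRNAs. It encodes a mucin-type branching enzyme of the gut that makes core 2 and core 4. Its level was 205, 172, 156 and 155 CPM per kilobase, 25.2% to 32.2% of the sum over all 79 genes. Next came ST3GAL1, which caps core 1 with sialic acid, at a mean of 65.1 CPM per kilobase over the 4 libraries, and MGAT4B, which starts an additional N-glycan antenna, at 56.9 CPM per kilobase. GALNT3, ST3GAL4, GALNT14 and GALNT12 followed with means of 29.3, 28.2, 26.6 and 24.8 CPM per kilobase, and the levels of these 4 genes overlapped across libraries. The other 72 genes had means of at most 16.7 CPM per kilobase.

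**Figure D1:**
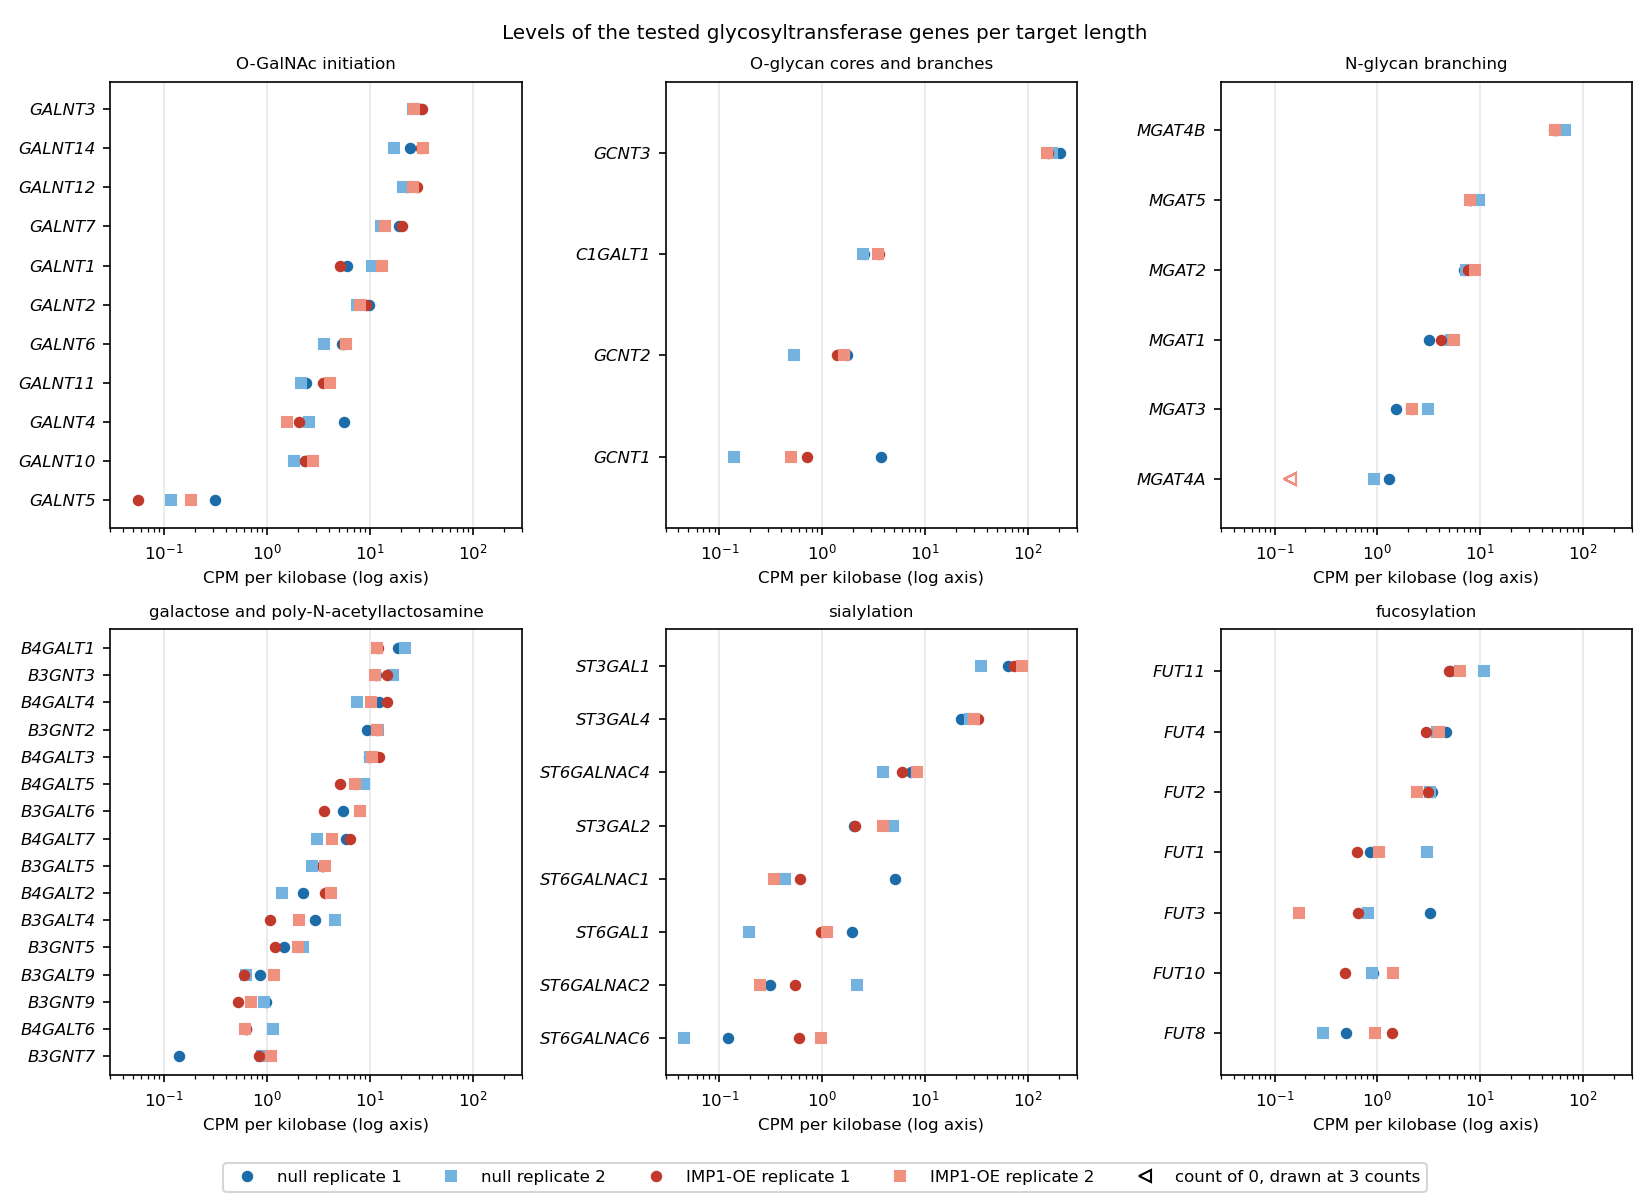
Level of each tested gene in each library, in CPM per kilobase of target on a log axis, in 6 panels by role (blue, null; red, IMP1-OE; circles, replicate 1; squares, replicate 2). GCNT3 stood alone above 150 CPM per kilobase in every library, and an open triangle marks the 2 IMP1-OE libraries in which MGAT4A had a count of 0.

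The sum over all 79 genes was 637, 576, 604 and 618 CPM per kilobase, so the groups overlapped. Enzymes of O-glycan cores and branches summed to 214 and 175 CPM per kilobase in null and to 162 in each IMP1-OE library, of which GCNT3 made up 96.1% to 98.1%. Sialyltransferases summed to 104 and 74.8 CPM per kilobase in null against 119 and 133 in IMP1-OE, of which ST3GAL1 made up 46.8% to 65.7%. The GALNT sum was 131 and 106 in null against 142 and 136 in IMP1-OE. GALNT14 made up 18.7% and 16.4% of it in null and 22.4% and 24.0% in IMP1-OE. These 3 sums did not overlap between the groups, and neither did the fucosyltransferase sum (18.9 and 23.4 against 14.2 and 17.4). By a narrow margin, the sums of the galactose and N-acetyllactosamine enzymes did not overlap either (93.5 and 104 against 93.1 and 91.1). That margin is smaller than the level of single genes of the role, such as B3GALT6 (5.51 and 8.04 against 3.60 and 8.07). Only the N-glycan branching sums, among the 6 roles, overlapped. The groups also did not overlap for 43.2% of all tested genes, in either direction, and no such share was computed for sums. For such a sum, exact permutation of 2 against 2 libraries allows no two-sided p below 0.333.

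**Figure D2:**
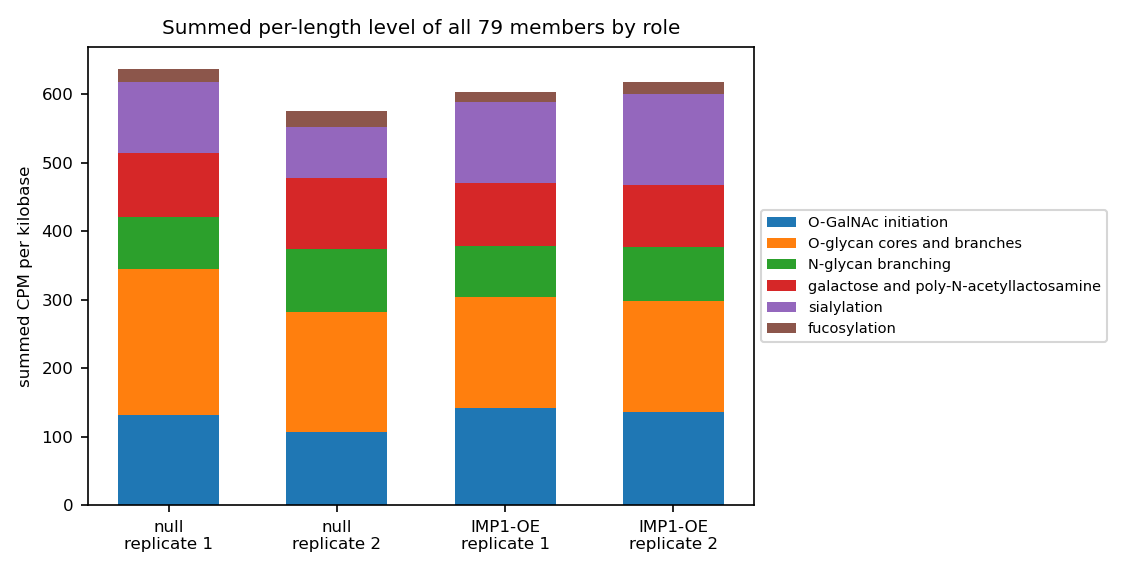
Summed level of the 79 genes in each library, in CPM per kilobase, as bars starting at 0 and divided by role. The totals run from 576 to 637 CPM per kilobase, and the sialyltransferase segment is shortest in null replicate 2 (74.8) and longest in IMP1-OE replicate 2 (133).

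In the comparison of IMP1-OE with null, 0 of the 52 tested glycosyltransferase genes passed an edgeR adjusted p of 0.05, as did 0% of all 12113 tested genes. At an unadjusted edgeR p under 0.05 there were 7 (background 10.2% of all tested genes): B4GALT2, FUT8, GALNT14 and ST6GALNAC6 on the higher side, where the background is 4.34%, and B4GALT1, GALNT4 and MGAT4A on the lower side, where it is 5.84%. The shares among the tested glycosyltransferases were 7.69% and 5.77%, so the count on the lower side was at the background. The higher side rests on 4 genes, and its distance from the background was not tested. Each side includes a gene that passed the low-count filter through 1 group only, ST6GALNAC6 and MGAT4A. Limma-voom called 0 of the 52 (background 0.00826%). DESeq2 called 1, MGAT4A, of 56 that it gave an adjusted p (background 1.28%), and 10 of the 56 had an unadjusted DESeq2 p under 0.05 (background 9.89%). A fit that leaves out a library has 1 library in that group, which is assumed to vary like the 2 of the other group. Without null replicate 1, edgeR called B4GALT1, GALNT14 and ST3GAL1 (background 6.46%), as did DESeq2 (background 8.4%). Without null replicate 2, edgeR called 0 (background 0.396%) and DESeq2 called GCNT1 and ST6GALNAC1 (background 2.11%). Without IMP1-OE replicate 1 or 2, both tools called 0 (DESeq2 background 0.194% and 0.266%). Fold changes lay on both sides in equal number, 26 higher and 26 lower, with a median log2 fold change of 0.01 beside -0.02 over all tested genes. The groups did not overlap for 14 genes on the higher side (background 21.3%) and for 10 on the lower side (background 21.9%), which are 26.9% and 19.2% of the 52 and together 24 genes (background 43.2%).

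**Figure D3:**
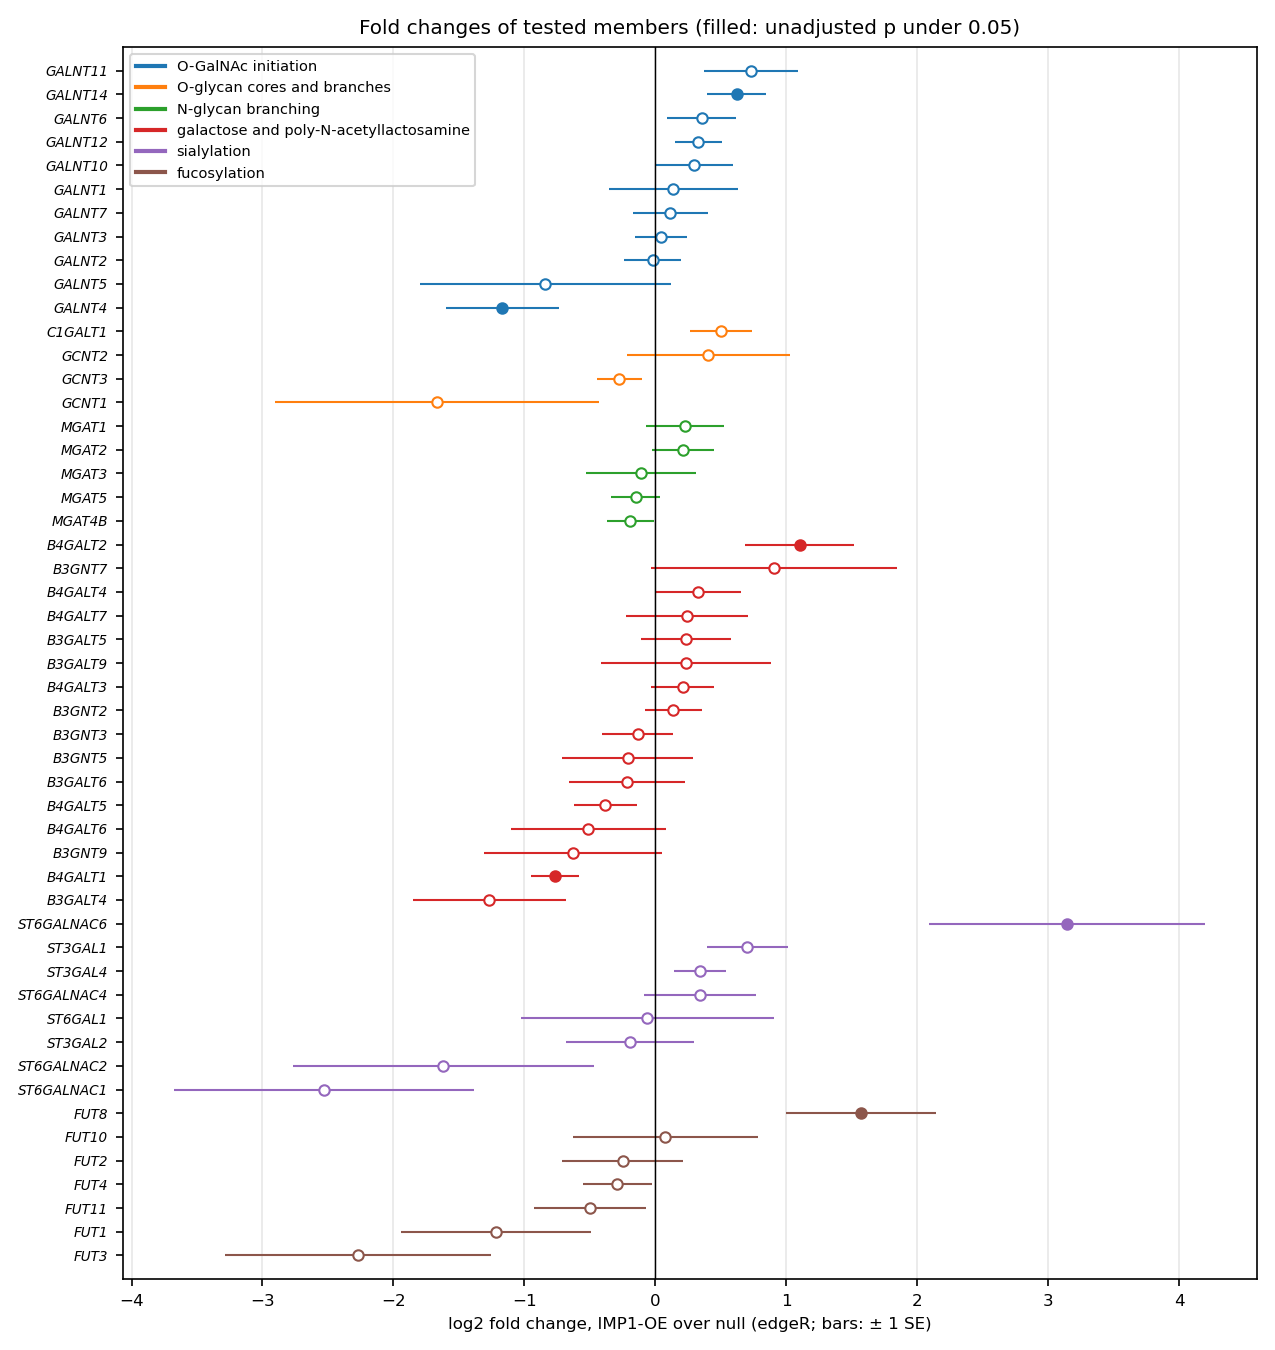
Fitted log2 fold change of IMP1-OE over null for 51 tested genes, grouped and coloured by role, with bars of 1 SE on each side; MGAT4A is left out because both IMP1-OE libraries were at 0. Filled points mark an unadjusted p under 0.05, and points lie on both sides of 0 in every role.

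Among the enzymes that start O-glycans, 11 of 18 GALNT genes were tested. GALNT14 was at 60.1 and 42.5 CPM in null and at 77.5 and 80.1 CPM in IMP1-OE. Both IMP1-OE libraries were above both null libraries, and the mean was 78.8 ± 1.89 CPM against 51.3 ± 12.4 CPM (mean ± SD, n = 2 as throughout). The log2 fold change was 0.62 (SE 0.22, unadjusted p = 0.0333, edgeR adjusted p = 0.464). Its share of the summed GALNT level per length was 18.7% and 16.4% in null and 22.4% and 24.0% in IMP1-OE. The edgeR adjusted p was 0.0426 without null replicate 1, with a lone null library, but 0.377 without null replicate 2 (log2 fold change 0.39) and 0.999 without either IMP1-OE library.

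GALNT4, which can add further sugars to partly glycosylated peptides, lay on the other side. It was at 30.1 and 13.9 CPM in null and at 11.1 and 8.46 CPM in IMP1-OE, with no overlap but a wide gap between the null libraries (log2 fold change -1.17, SE 0.43, unadjusted p = 0.0360, adjusted p = 0.467 by edgeR). Without null replicate 1 the log2 fold change was -0.50. The table also holds POC1B-GALNT4, a read-through of the neighbouring gene POC1B into GALNT4, with counts of 14, 0, 70 and 58. GALNT4 itself had counts of 308, 127, 117 and 89. Between the groups the read-through was higher where GALNT4 was lower, but within each group both were lower in replicate 2. Short fragments of the shared sequence can be assigned to either target. Both targets together had 322, 127, 187 and 147 counts, or 22.7 ± 12.4 CPM in null and 15.9 ± 2.70 CPM in IMP1-OE, and null replicate 1 alone was above the other libraries.

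GALNT3, an enzyme known for glycosylating the phosphate hormone FGF23, was the most abundant GALNT mRNA per length over the 4 libraries. Its level was 108 and 90.3 CPM in null and 112 and 92.8 CPM in IMP1-OE (log2 fold change 0.04, SE 0.20, edgeR adjusted p = 0.959). Per length it stood 1.28 and 1.51 times as high as GALNT14 in null, and 1.03 and 0.82 times in IMP1-OE. The lower ratio restates the higher GALNT14 level and is no further result. GALNT12, a GALNT of the digestive tract, was at 64.1 and 57.6 CPM in null and 79.2 and 73.4 CPM in IMP1-OE (unadjusted p = 0.117). GALNT11 was at 6.65 and 5.91 CPM against 9.61 and 11.2 CPM (unadjusted p = 0.0891). GALNT6 and GALNT10 also lay higher in IMP1-OE without overlap, with unadjusted p of 0.230 and 0.363. Together with GALNT14, these made 5 of the 11 tested GALNT genes whose IMP1-OE libraries were both above null (background 21.3%), and 8 of the 11 had a positive fold change. GALNT1, at 23.8 and 41.9 CPM against 20.3 and 51.9 CPM, varied more within the groups than between them. GALNT11, GALNT12, GALNT6, GALNT10 and GALNT1 fall outside the rule for named genes and were picked after their values were seen.

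For the cores of O-glycans, C1GALT1 was at 15.9 and 15.5 CPM in null and 22.6 and 22.0 CPM in IMP1-OE. The libraries of each group lay close together and did not overlap, yet the difference did not pass (log2 fold change 0.50, SE 0.24, unadjusted p = 0.0795, edgeR adjusted p = 0.530). Its chaperone C1GALT1C1, without which the enzyme does not fold, was at 49.6 and 38.1 CPM in null and 44.6 and 37.7 CPM in IMP1-OE. GCNT3 was at 485 and 406 CPM in null and 369 and 367 CPM in IMP1-OE, lower without overlap (log2 fold change -0.28, SE 0.17, unadjusted p = 0.162). B3GNT6, the core 3 enzyme of normal colon, was not tested, at counts of 5, 3, 0 and 4.

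Of the N-glycan branching enzymes, MGAT4A had 27 and 17 counts in null and 0 in each IMP1-OE library. It starts the same antenna as MGAT4B. The level in null was 2.64 and 1.86 CPM. Their mean of 2.25 CPM was 7.89 times the mean level of the 3 counts per library that a count of 0 allows in IMP1-OE. MGAT4A passed the low-count filter through null only. EdgeR gave an unadjusted p of 0.00524 and an adjusted p of 0.433. DESeq2 gave an adjusted p of 0.0436. For MGAT4A the authors' deposited table gives the same adjusted p of 0.0436, so that table is no second source for the call. Its deposited log2 fold change of -0.04 lies much nearer 0 than the -7.00 of the DESeq2 fit here. MGAT4A is the only one of these genes with an adjusted p under 0.05 in the deposited table (background 1.28%). The DESeq2 call was lost without null replicate 2 (adjusted p = 0.169), without IMP1-OE replicate 1 (0.863) and without IMP1-OE replicate 2 (0.908), and without null replicate 1 DESeq2 gave no adjusted p.

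Its relative MGAT4B was far more abundant, at 130 and 157 CPM in null and 124 and 127 CPM in IMP1-OE, where MGAT4A was not detected (log2 fold change -0.19, SE 0.18, edgeR adjusted p = 0.757). Per length, MGAT4B stood 42.1 and 71.8 times as high as MGAT4A in the null libraries. MGAT4B made up 68.7% to 72.5% of the summed MGAT level. MGAT5, which makes the branch that is most often extended with poly-N-acetyllactosamine, was at 66.2 and 80.4 CPM in null and 65.8 and 66.3 CPM in IMP1-OE (log2 fold change -0.15, SE 0.19, edgeR adjusted p = 0.824). MGAT1, MGAT2 and MGAT3 had log2 fold changes from -0.11 to 0.23, with unadjusted p from 0.410 to 0.802.

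Among the enzymes that add galactose and extend chains, B4GALT1 and B4GALT2 lay on opposite sides. B4GALT1, the main enzyme that adds galactose to N-acetylglucosamine, was at 78.3 and 90.9 CPM in null and at 49.8 and 49.6 CPM in IMP1-OE. The IMP1-OE libraries were nearly equal and both below null, a 1.70-fold lower level (log2 fold change -0.77, SE 0.18, unadjusted p = 0.00573, edgeR adjusted p = 0.433). Leaving out null replicate 1 gave an edgeR adjusted p of 0.0376, with a lone null library, while it was 0.203 without null replicate 2 and 0.999 without either IMP1-OE library. The adjusted p of B4GALT1 is 0.107 in the authors' deposited table, the same as in the DESeq2 fit here. The deposited log2 value of -0.58 lies nearer 0 than the -0.76 of that fit.

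Its relative B4GALT2 was at 5.87 and 3.72 CPM in null and at 9.71 and 10.9 CPM in IMP1-OE, 2.15-fold higher without overlap (log2 fold change 1.10, SE 0.42, unadjusted p = 0.0386, edgeR adjusted p = 0.474). The ratio of B4GALT1 to B4GALT2 per length was 8.40 and 15.4 in null and 3.23 and 2.86 in IMP1-OE. B4GALT1 was thus the more abundant of both in every library, by a smaller margin in IMP1-OE. That smaller margin follows from the opposite fold changes of the 2 genes and is no further result. The share of B4GALT1 in the summed level of this role was 20.1% and 21.0% in null and 12.8% and 13.0% in IMP1-OE. B3GNT3, a core 1 extending enzyme and the next most abundant of the role per length over the 4 libraries, was at 31.0 and 45.7 CPM in null. In IMP1-OE it was at 39.8 and 30.0 CPM, with overlap (edgeR adjusted p = 0.898). Per length it was above B4GALT1 in IMP1-OE replicate 1 (14.8 against 11.9 CPM per kilobase). In all, 16 of 20 genes of the role were tested, 8 with a positive and 8 with a negative fold change.

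**Figure D4:**
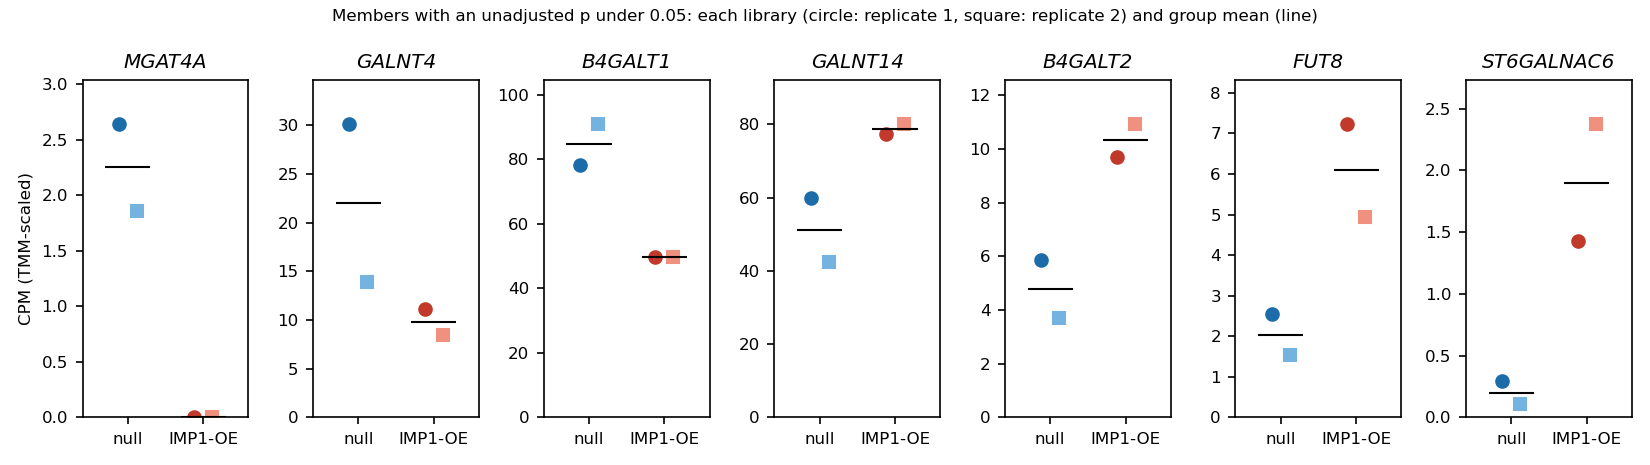
Level of the 7 genes with an unadjusted p under 0.05 in each library, in TMM-scaled CPM on linear axes that start at 0 (circle, replicate 1; square, replicate 2; line, group mean). In each panel the 2 groups do not overlap, and the IMP1-OE libraries of B4GALT1 nearly coincide (49.8 and 49.6 CPM).

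Among sialyltransferases, ST3GAL1 was at 186 and 102 CPM in null and 215 and 254 CPM in IMP1-OE. Both IMP1-OE libraries were above null, and the null libraries differed 1.83-fold from each other (log2 fold change 0.70, SE 0.31, unadjusted p = 0.0625, edgeR adjusted p = 0.506). Without null replicate 1 the log2 fold change was 1.20 with an edgeR adjusted p of 0.0205, and without null replicate 2 it was 0.33 with an adjusted p of 0.446. Without either IMP1-OE library the edgeR adjusted p of ST3GAL1 was 0.999. ST3GAL4, which caps N-acetyllactosamine chains, was at 40.5 and 49.6 CPM in null and 59.8 and 54.5 CPM in IMP1-OE (log2 fold change 0.34, SE 0.20, edgeR adjusted p = 0.602). ST6GALNAC6, which adds sialic acid to gangliosides and to disialyl Lewis a, had counts of 3 and 1 in null and 15 and 25 in IMP1-OE. The ratio of the summed counts, scaled for depth, was 9.21 with an exact 95% counting interval of 3.33 to 35.4, which leaves out the spread between libraries and rests on 4 null counts (edgeR unadjusted p = 0.0252, adjusted p = 0.453). The fitted log2 fold change of ST6GALNAC6 went from 3.14 to 3.97 when null replicate 1 was left out.

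Fucosyltransferases were the least abundant role, at 2.35% to 4.07% of the sum per length. FUT8, the enzyme of core fucose on N-glycans, was at 2.54 and 1.53 CPM in null and at 7.23 and 4.94 CPM in IMP1-OE, 2.97-fold higher without overlap (log2 fold change 1.57, SE 0.57, unadjusted p = 0.0342, edgeR adjusted p = 0.464). FUT3, the Lewis enzyme, was at 7.04 and 1.75 CPM in null and 1.43 and 0.380 CPM in IMP1-OE. Both IMP1-OE libraries were below null, and null replicate 1 was 4.02 times as high as null replicate 2 (log2 fold change -2.27, SE 1.01, unadjusted p = 0.0671, edgeR adjusted p = 0.510). Without null replicate 1 the log2 fold change was -0.94, without null replicate 2 it was -2.95, and without IMP1-OE replicates 1 and 2 in turn it was -3.49 and -1.60. FUT3, FUT5 and FUT6 are similar in sequence, so short fragments may be assigned to the wrong one and their counts are uncertain. Counts were 72, 16, 15 and 4 for FUT3, 0, 6, 0 and 0 for FUT5, and 4, 1, 0 and 18 for FUT6. FUT11, the most abundant fucosyltransferase mRNA per length over the 4 libraries, was at 10.7 and 22.7 CPM in null and 10.3 and 13.3 CPM in IMP1-OE. FUT4, which makes Lewis x, was at 28.1 and 22.7 CPM against 17.7 and 23.8 CPM. Both overlapped between the groups, with edgeR adjusted p of 0.732 and 0.748.

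For several glycosyltransferase genes the 2 null libraries lay far apart. Of 51 tested genes with 10 or more counts in a null library, 6 differed over 4-fold between the null libraries, beside 5.59% of all tested genes, and 0 of 51 did so between the IMP1-OE libraries, beside 2.56%. Apart from FUT3 these genes were picked after their values were seen. GCNT1, the core 2 enzyme found in most tissues, was at 20.6 CPM in null replicate 1, 0.766 CPM in null replicate 2, and 4.00 and 2.76 CPM in IMP1-OE. Its log2 fold change was -1.66 with all libraries, 2.12 without null replicate 1 and -2.61 without null replicate 2. GCNT1 and MGAT4B overlap the genes RFK and SQSTM1 in the RefSeq annotation (GRCh38.p14), and no source used here says whether counting used strand.

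ST6GALNAC1, which makes the sialyl-Tn antigen of goblet cell mucins, was also highest in null replicate 1, at 12.7 and 1.09 CPM in null and 1.52 and 0.856 CPM in IMP1-OE. Its log2 fold change was -2.53 (unadjusted p = 0.0698), and 0.12 without null replicate 1. Without null replicate 2 DESeq2 gave adjusted p of 0.00999 for GCNT1 and 0.0165 for ST6GALNAC1. ST6GAL1, which sialylates N-glycans, was at 8.90 and 0.875 CPM in null and at 4.38 and 5.04 CPM in IMP1-OE, so that IMP1-OE lay between the null libraries. Higher in null replicate 2 were ST6GALNAC2, at 0.587 and 4.16 CPM in null and 1.05 and 0.475 CPM in IMP1-OE, and B3GNT7, at 0.489 and 3.17 CPM in null and 2.95 and 3.90 CPM in IMP1-OE.

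Other genes also differed between the null libraries, in both directions. Of 12 mucin genes, 6 were highest in null replicate 1 and 5 in null replicate 2, the latter including MUC16 and MUC20. The mucin MUC2 was at 102 and 2.85 CPM in null and 2.57 and 2.85 CPM in IMP1-OE, and MUC5AC at 2130 and 121 CPM in null and 1081 and 984 CPM in IMP1-OE. The summed level of 12 mucin genes was 2608, 480, 1320 and 1188 CPM, and that of 18 interferon-stimulated genes 1197, 8343, 943 and 1211 CPM. The part of either in the glycosyltransferase values was not tested. Null replicate 2 held the lowest level for 20 of the 52 tested glycosyltransferases (38.5%, beside 31.8% of all tested genes) and the highest for 14 (26.9%, beside 32.5%).

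**Figure D5:**
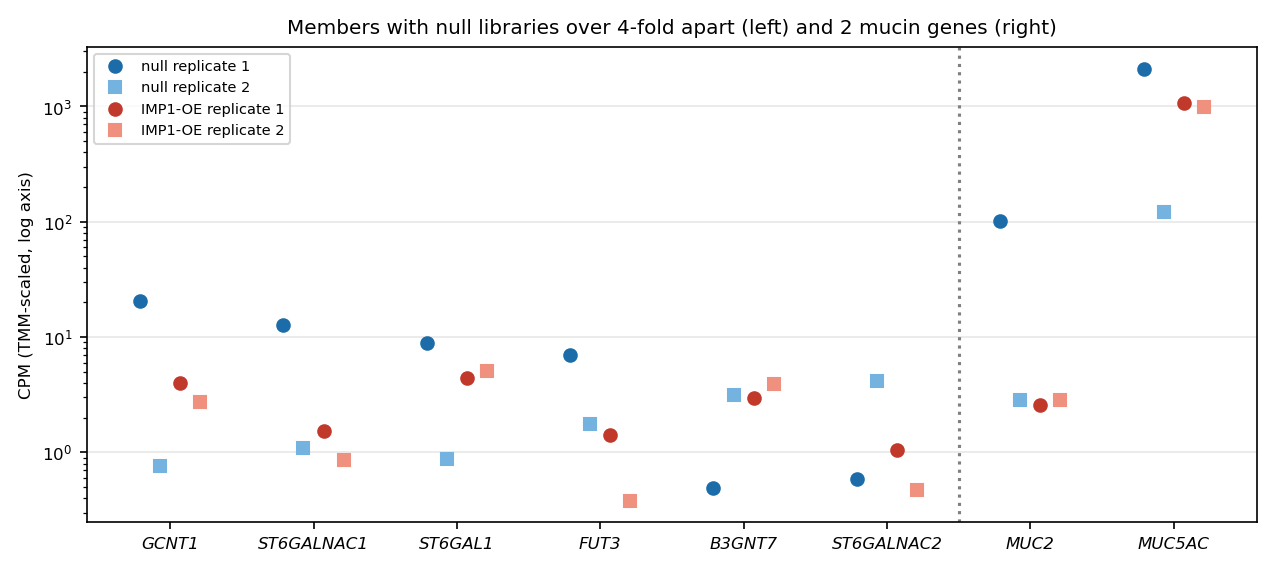
Level in each library, in TMM-scaled CPM on a log axis, of the 6 glycosyltransferase genes whose null libraries differed over 4-fold and, right of the dotted line, of MUC2 and MUC5AC (blue, null; red, IMP1-OE; circles, replicate 1; squares, replicate 2). GCNT1, ST6GALNAC1, ST6GAL1 and FUT3 were higher in null replicate 1, as were both mucins, while B3GNT7 and ST6GALNAC2 were higher in null replicate 2.

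Of the genes that supply these enzymes, those of sugar nucleotide synthesis held 3 of 17 tested genes with an unadjusted edgeR p under 0.05, all lower in IMP1-OE (background 5.84%). The median log2 fold change of the 17 was -0.12. FCSK, the kinase that salvages free fucose, was at 39.8 and 37.9 CPM in null and 18.6 and 17.0 CPM in IMP1-OE, 2.18-fold lower (edgeR unadjusted p = 0.00168, adjusted p = 0.408, DESeq2 adjusted p = 0.0306). GALT, which converts galactose-1-phosphate, was at 37.1 and 27.8 CPM in null and 16.5 and 15.4 CPM in IMP1-OE, 2.04-fold lower (unadjusted p = 0.00630). GNE, which starts sialic acid synthesis, was the other of the 3, at 120 and 115 CPM against 33.4 and 34.3 CPM. The edgeR adjusted p of GNE was 0.124 and the DESeq2 adjusted p 8.87e-11. Its edgeR adjusted p was 0.00531 and 0.0227 when null replicates 1 and 2 were left out in turn, and 0.889 and 0.747 when IMP1-OE replicates 1 and 2 were. The donors' transporters, together with C1GALT1C1, held 0 of 11 tested genes at an unadjusted edgeR p under 0.05 (background 10.2%) and 0 by DESeq2 adjusted p, with a median of -0.09. Oligosaccharide transfer and trimming held 1 of 14 (background 10.2%), the Golgi mannosidase MAN1A1, at 24.2 and 25.8 CPM in null and 15.4 and 17.3 CPM in IMP1-OE (unadjusted p = 0.0402).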

How the data were processed

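The deposited table holds kallisto estimated counts per target and library, per the file headers, with 1 transcript for each of 20322 genes, and all values were whole numbers. The submitters' processing notes name kallisto 0.46.2, HISAT2 2.1.0, fastp 0.21, cutadapt 3.5 and DESeq but give none a role. RNA fragments of 18 to 50 nt were used, per the labels' protocols, and no source used here gives the build, the annotation or the use of the molecular identifiers. The authors' deposited comparison table holds a mean normalized signal (not used here), log2 fold changes and p-values. The count table names 2 further samples that match no label, and these are not analysed here.

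Counts were tested with edgeR 4.0.16 (R 4.3.3): TMM scaling, the default low-count filter, and the quasi-likelihood F test of IMP1-OE against null with no covariate. P-values were adjusted by Benjamini-Hochberg over all 12113 tested genes (threshold 0.05), and an SE is the size of the log2 fold change over the root of F. Levels between genes are CPM per kilobase of the deposited target length. The 2 libraries of a group differed beyond counting noise (chi-square per degree of freedom 45.1 for null and 16.0 for IMP1-OE). Alternatives were limma-voom (limma 3.58.1), DESeq2 1.42.0, 3 scalings, 2 filters, a replicate block and the omission of each library or of ARSI. The target ARSI took 17.8% and 17.3% of the counts in null and 8.01% and 12.4% in IMP1-OE. DESeq2 without each library was added after the data were seen. The fit was tested on simulated counts. The members, lists and rules were chosen with earlier results of these data known. Genes were named if they had an unadjusted edgeR p under 0.05, an adjusted p under 0.05 by DESeq2 or in the deposited table, one of the 2 highest levels per length in their role, or one of the 2 smallest p above 0.05.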

Additional observations from a re-analysis of the deposited data

How the results depend on the processing

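The count of genes called over the whole table was 0 with edgeR and changed most with the test and the null libraries. DESeq2 called 164, limma-voom 1, edgeR with no low-count filter 22 and edgeR with the replicate number as a block 15. Leaving out 1 library at a time gave 0 to 783 calls with edgeR. With DESeq2 it gave 1025 and 263 without null replicates 1 and 2, and 27 and 33 without IMP1-OE replicates 1 and 2. Glycosyltransferase calls numbered 0 with edgeR and 1 with DESeq2. Without single libraries they ran from 0 to 3 with edgeR and were 3, 2, 0 and 0 with DESeq2 in the same order. Those at an unadjusted p under 0.05 numbered 7, and 1 to 14 without single libraries by edgeR. With DESeq2 there were 3 and 1 when IMP1-OE replicates 1 and 2 were left out. For the fits without single libraries, the share of all tested genes at an unadjusted p under 0.05 was not computed. These counts therefore do not show whether the glycosyltransferases differed from other genes. Their median log2 fold change was 0.01, and 0.094 with library totals only (0.06 over all tested genes). Without single libraries the median was -0.10 to 0.10 by edgeR. By DESeq2 it was 0.11 without null replicate 1, and -0.10 when IMP1-OE replicate 2 was left out. The sign turned without single libraries for 3 of the 18 named genes: GALNT3 (log2 fold change -0.094 to 0.18 by edgeR, and -0.082 and -0.099 by DESeq2 without null replicate 2 and IMP1-OE replicate 1), B3GNT3 (-0.39 to 0.17, and 0.17 and 0.066 by DESeq2 without null replicate 2 and IMP1-OE replicate 2) and FUT11 (-0.94 to 0.15, and 0.14 by DESeq2 without null replicate 2). The other 15 kept their direction in every alternative run. The 18 were chosen by small p or high level, so they do not stand for all tested glycosyltransferases. By edgeR without single libraries, the sign also turned for many tested glycosyltransferases outside the 18. They were B3GALT6, B3GALT9, B3GNT2, B3GNT5, B4GALT7, FUT10, GALNT1, GALNT2, GALNT5, GALNT7, GCNT1, GCNT2, MGAT1, MGAT3, ST3GAL2, ST6GAL1, ST6GALNAC1, ST6GALNAC2 and ST6GALNAC4. Labels do not say that a replicate number marks a shared origin. Same-numbered libraries deviated from their group means with a correlation of 0.12 over genes, and the block left the glycosyltransferase calls at 0. At these depths a count of 0 leaves levels under 0.285 to 0.328 CPM undetectable.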

Other observations

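Genes that hold the Golgi together were described as a list of 18 tethers and stacking proteins, of which 9 were lower in both IMP1-OE libraries than in either null library (background 21.9% of all tested genes) and 1 was higher (background 21.3%). The median log2 fold change was -0.26, beside -0.02 over all tested genes. COG5, a subunit of the tether that recycles glycosyltransferases within the Golgi, was at 65.1 and 68.4 CPM in null and 48.2 and 48.1 CPM in IMP1-OE (edgeR unadjusted p = 0.0364, adjusted p = 0.468), and it was the only one of the 18 with an unadjusted p under 0.05 (background 10.2%). Among 11 tested genes of other glycan-capping enzymes, GAL3ST1, a sulfotransferase of glycolipids, was at 32.0 and 42.8 CPM in null and 16.3 and 25.6 CPM in IMP1-OE (unadjusted p = 0.0323, adjusted p = 0.462). ST8SIA6, which adds sialic acid to sialic acid, had counts of 0 and 3 in null and 21 and 22 in IMP1-OE (unadjusted p = 0.0356, adjusted p = 0.465), and passed the low-count filter through IMP1-OE only. Of 10 tested mucin genes, MUC2, MUC16, MUC17 and MUC20 had an unadjusted edgeR p under 0.05, all lower in IMP1-OE (background 5.84%), with adjusted p from 0.453 to 0.465. Their null libraries differed from each other: MUC16 was at 1.47 and 13.6 CPM, MUC17 at 14.2 and 1.20 CPM and MUC20 at 111 and 241 CPM, against 0.571 and 0.856, 0.571 and 1.05, and 92.5 and 75.8 CPM in IMP1-OE. The log2 fold change of MUC2 went from -4.27 to -0.07, and that of MUC17 from -3.23 to -0.57, when null replicate 1 was left out. When null replicate 2 was left out, that of MUC16 went from -3.37 to -1.03 and that of MUC20 from -1.06 to -0.40.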
